A study of Danio rerio with 18 samples.

Results

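The 66 genes described here encode proteins of the cytosolic ribosome of the zebrafish, of 19247 genes measured by a named row. They were chosen by a rule on the symbol, with earlier results of these data known. The rule took names starting with rpl or rps and a number, the acidic stalk proteins rplp1, rplp2 and rplp2b, and rpsa. For each gene 1 row was used, the brightest over the 18 arrays. Of the 66 genes, 38 belong to the large subunit and 28 to the small subunit. Left out by the rule were 9 S6 kinase genes and 4 genes with a like tag (rpl22l1, rpl7l1, rps26l and rps27l). A further 6 ribosomal proteins (rpl4, rpl5a, rpl12, rpl22, rpl32 and rps23) sat only on rows shared with a second gene and were not counted as members.

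The arrays measured RNA of sorted cells from pooled zebrafish embryos of strain AB carrying the transgenes Runx1+23:GFP and kdrl:DsRed2. The treated embryos received Lycorine at 75 µM with 1% DMSO as carrier from 2 to 3 days post fertilization, the controls received the carrier only, and cells were sorted at 3 days. The 6 groups were Lycorine Runx+, DMSO Runx+, Lycorine kdrl+, DMSO kdrl+, Lycorine negative and DMSO negative cells, with 3 arrays each. Runx+ cells carried the reporter of a Runx1 enhancer, which marks hematopoietic stem and progenitor cells (HSPC), kdrl+ cells carried the endothelial reporter, and negative cells carried neither colour and could be of any other type. The labels call the 3 arrays of a group biological replicates. They do not say that equal numbers share a pool of embryos or that different numbers were separate pools, so the p-values may measure only technical spread.

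Ribosomal proteins assemble with ribosomal RNA into the small subunit, which reads the messenger RNA, and the large subunit, which joins the amino acids. Vertebrate messages for these proteins begin with a terminal oligopyrimidine (TOP) tract, through which the mTORC1 kinase and the RNA-binding protein Larp1 control their translation and stability together. Lycorine, an alkaloid of Amaryllidaceae plants, inhibits protein synthesis, and in yeast it is known to bind the peptidyl transferase centre of the large subunit. Loss of one copy of several of these genes causes Diamond-Blackfan anaemia in humans, a failure of red cell formation. An array reads the RNA level of each gene relative to all others on that array, so translation and the total amount of ribosomal protein RNA per cell are not measured, and in such bulk samples fewer cells of a type and less RNA per cell cannot be told apart.

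The sorts were checked against marker lists, each scored as the mean log2 difference of its genes from their own means over the 18 arrays. The endothelial score (14 of 16 genes measured) lay between 1.96 and 2.97 on the arrays of kdrl+ cells and between -1.83 and -0.79 on all others. The HSPC score (11 of 11 genes) lay between -0.61 and -0.25 in Lycorine Runx+ cells and between -0.66 and 0.12 in DMSO Runx+ cells, below the range of 0.40 to 1.11 in both groups of kdrl+ cells and overlapping the range of -0.61 to -0.20 in both groups of negative cells. The gene runx1 itself read 4.70 to 4.98 in Lycorine Runx+ cells and 5.09 to 5.44 in DMSO Runx+ cells, against 4.42 to 5.33 on the 6 arrays of negative cells. Another gene of that list, itga2b, read 4.91 to 7.21 on the 6 arrays of Runx+ cells, above the 4.38 to 4.75 on the 6 arrays of negative cells. On the same arrays gata2b read 4.83 to 5.59 in Runx+ cells against 4.88 to 5.68 in negative cells. The gene myb read 6.99 to 8.38 against 6.94 to 7.77, so both of these overlapped. The Runx+ cells are therefore called by their reporter and not by a cell type. The score of liver, pancreas and gut markers (10 of 15 genes) was 1.62, 2.30 and 2.72 on replicate 2 of DMSO Runx+, kdrl+ and negative cells and 1.14 on replicate 3 of DMSO Runx+ cells, against at most 0.02 on every other array. Values without the 3 DMSO arrays of number 2, an alternative added after these scores were seen, are given beside several of the results they touch.

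Values are log2 intensities. The 66 rows were bright: 56 averaged at least 10, beside array medians of 4.87 to 5.12 and highest values of 12.99 to 13.32. Only rps8b averaged below the median of all rows, at 4.88, so its values lie in the range of dim rows. Rows of different genes carry different probes and their levels are not ranked. Over the 6 group means of a gene, the distance from lowest to highest was 0.25 in the median gene, a 1.19-fold span. It ran from 0.10 for rps14, a small subunit protein near the platform (1.07-fold), to 0.62 for rpl39, a very small protein at the wall of the exit tunnel (1.53-fold). The standard deviation (SD) of the 3 arrays of a group had a median of 0.08 to 0.11 over the 66 genes, depending on the group, against 0.19 to 0.38 over all genes. The standard error (SE) of a difference between 2 groups was 0.17 for the median ribosomal protein gene and 0.27 for the median of all genes. This SE is moderated in limma, which draws the spread of each gene towards that of all genes. The SD pooled within groups was 0.11 for the median ribosomal protein gene and 0.34 for the median of all genes. The SE, intervals and tests of most of the 66 are therefore wider or stricter than their own spread alone would give.

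**Figure D1:**
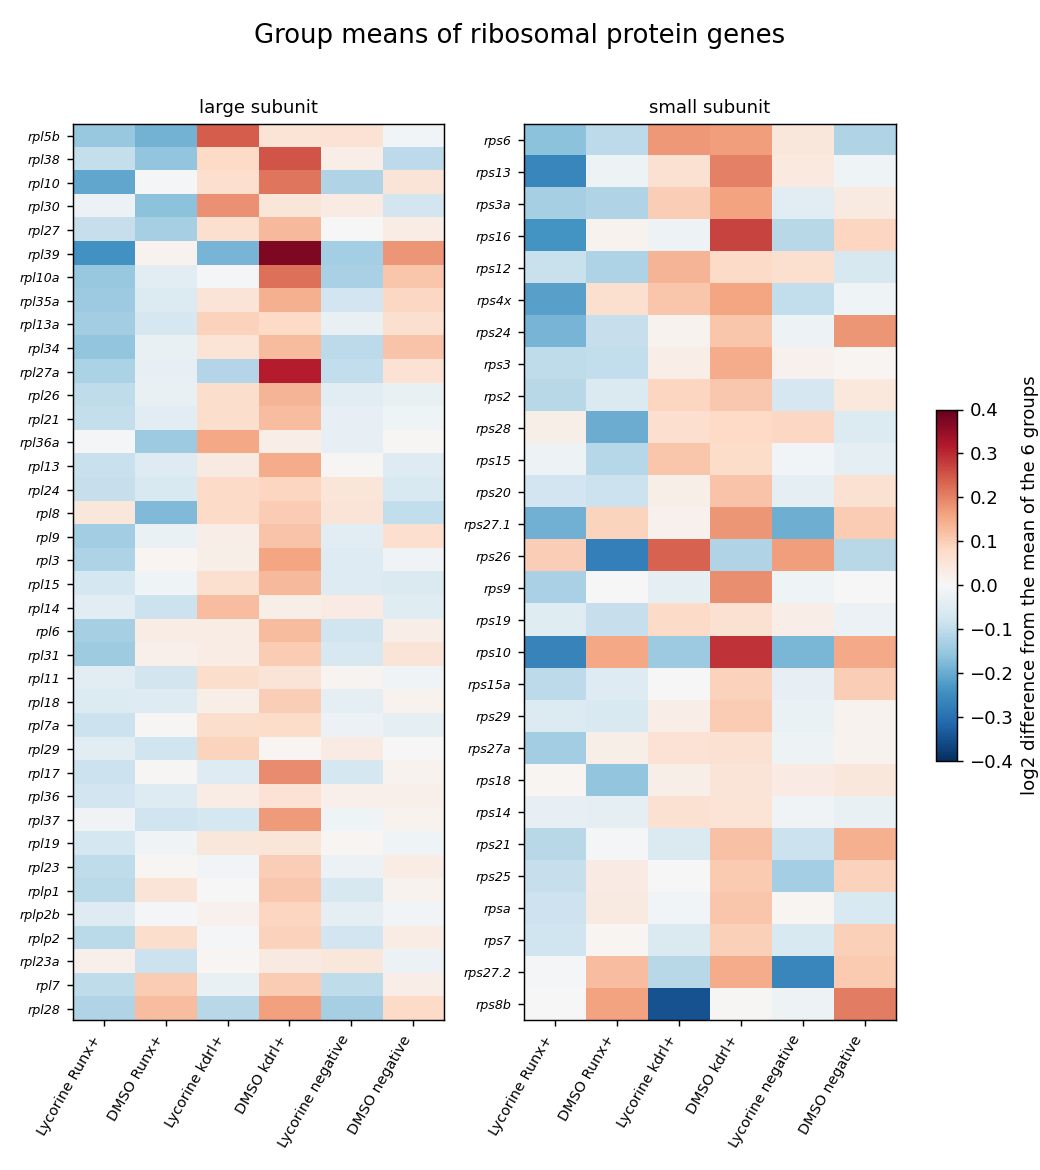
Group means of the 66 ribosomal protein genes, as the log2 difference of each group mean (mean of 3 arrays) from the mean of the 6 groups for that gene, with large subunit genes at left and small subunit genes at right. With the deposited values, the column of DMSO kdrl+ cells is the highest of the 6 for 46 genes. The column of Lycorine Runx+ cells is the lowest for 40. Shares over all genes were not computed for these counts. In both treatments 61 genes had a lower mean in Runx+ than in kdrl+ cells, against 31.7% of all genes. That count was 37 after quantile normalization (29.9% of all genes), 40 after cyclic loess (31.1%) and 63 after median centring (34.1%).

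The first comparison asked whether RNA levels of ribosomal protein genes differed between embryos treated with the synthesis inhibitor and embryos given the carrier. Averaged over the 3 sorts, the median gene of the 66 was lower with Lycorine by a log2 difference of -0.06, or 0.961-fold, and 48 of 66 lay below 0. The median over all 19247 genes was -0.07 with 59.6% below 0, close to that of the ribosomal protein genes. The single genes ran from -0.40 for rps10 to 0.34 for rps26. None of the 66 passed an adjusted p of 0.05 in limma (smallest 0.0568), while 982 of all genes, 5.10%, did. At an unadjusted p under 0.05 there were 5 of the 66, beside 24.8% of all genes. The count of 982 was 353 to 2395 when 1 array was left out and 177 to 2536 under the other alternatives. The 95% interval of the difference lay within 1.5-fold for 64 of the 66 and within 2-fold for all 66. Under other settings, 0 to 3 of the 66 passed in this average, and those that did were among rps10, rps26, rpl39 and rpl28. Without the DMSO arrays of number 2, none passed, 43 lay below 0 and the median was -0.06.

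**Figure D2:**
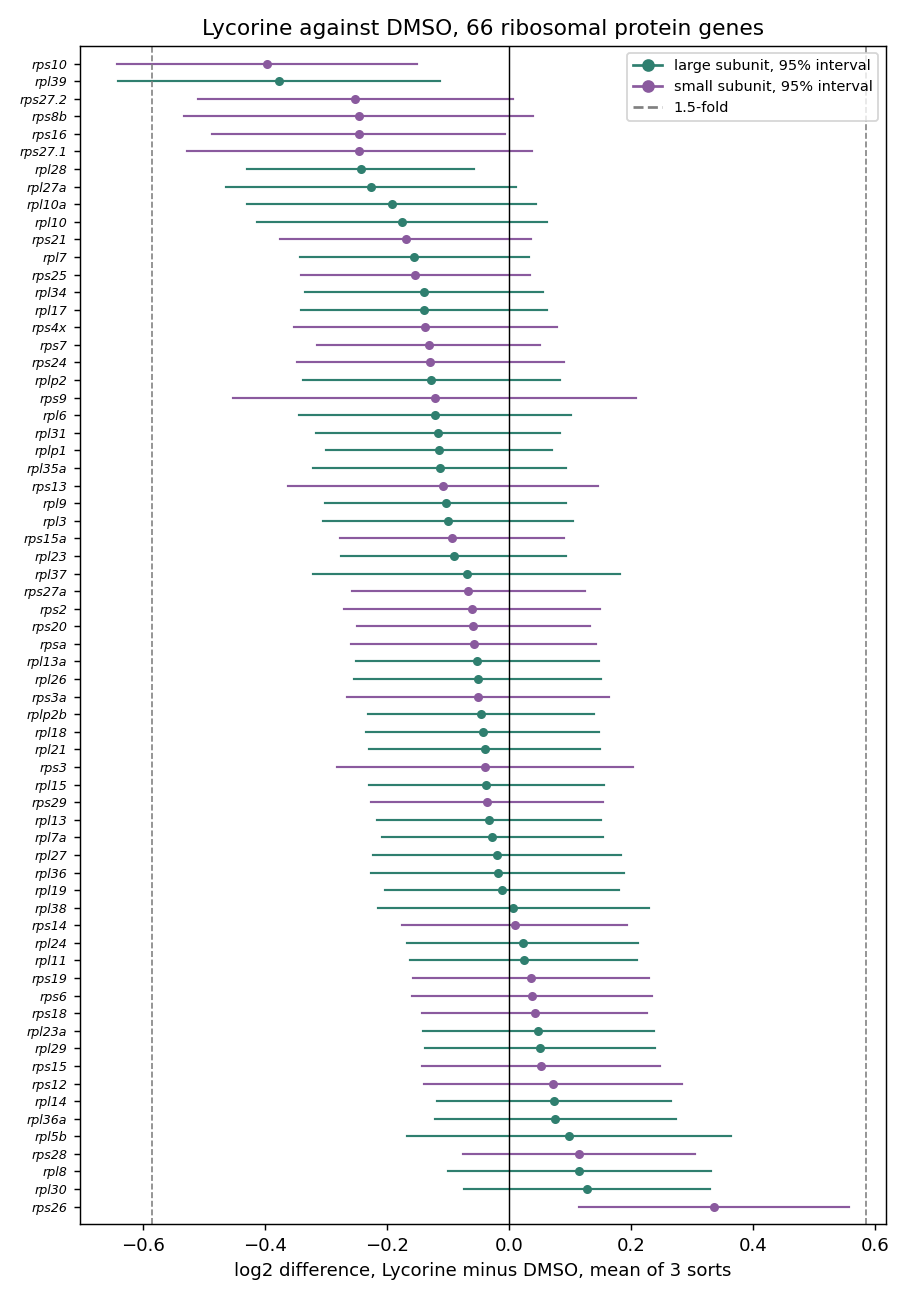
Log2 difference between Lycorine and DMSO, averaged over the 3 sorts, for each of the 66 ribosomal protein genes, with the 95% interval from the fit to 18 arrays and the subunit in colour. All points lie between -0.40 and 0.34, and the intervals of 64 genes stay inside the dashed lines at 1.5-fold.

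The median difference was -0.05 for the 38 large subunit genes, 28 of them below 0, and -0.06 for the 28 small subunit genes, 20 of them below 0. Other bright genes of the array, 176 with a mean of at least 10, had a median of -0.05, and 13 of them, 7.39%, passed the same test. This group was drawn up after the values were seen. The 56 members with a mean of at least 10 had a median of -0.05, and the 10 dimmer members one of -0.13. The median SE was 0.09 for these bright members and 0.11 for the dimmer ones. In kdrl+ cells alone the medians were -0.07 for the bright and -0.20 for the dimmer members. The gap was smaller in the other sorts, with -0.06 and -0.09 in Runx+ cells and -0.04 and -0.06 in negative cells.

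Within single sorts the differences were of the same small size. In Runx+ cells the median difference of the 66 genes was -0.07 with 46 below 0, against a median of -0.04 over all genes, and it was -0.02 with 38 below 0 without replicate 2 of the DMSO cells. In kdrl+ cells it was -0.08 with 53 below 0, against -0.06. In negative cells it was -0.04 with 43 below 0, against -0.08. Without replicate 2 of the DMSO cells it was -0.09 with 55 below 0 in kdrl+ cells, and -0.04 with 40 below 0 in negative cells. With all arrays, 55.1% of all genes lay below 0 in Runx+ cells, 56.4% in kdrl+ cells and 60.7% in negative cells. No ribosomal protein gene passed the adjusted test of limma in any sort, where 0% of all genes passed in Runx+ cells, 0.0520% in kdrl+ cells and 0% in negative cells. At an unadjusted p under 0.05 there were 0 of 66 in Runx+ cells, 3 in kdrl+ cells (rpl39, rpl27a and rps10) and 0 in negative cells, beside 13.5%, 11.4% and 6.76% of all genes in that order.

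All 3 Lycorine arrays lay below all 3 DMSO arrays for 9 of the 66 genes in Runx+ cells (13.6%, against 8.62% of all genes), for 13 in kdrl+ cells (19.7%, against 10.2%) and for 12 in negative cells (18.2%, against 11.7%). They lay above all 3 DMSO arrays for 4 genes in Runx+ cells (6.06%, against 6.67% of all genes), for 3 in kdrl+ cells (4.55%, against 5.66%) and for 2 in negative cells (3.03%, against 5.13%). By sign, 36 of the 66 (54.5%) were lower with Lycorine in all 3 sorts, against 31.7% of all genes. In the other direction 10 (15.2%) were higher in all 3, against 19.2%. The counts of this paragraph are given for the deposited values and all 18 arrays only. After median centring fewer than 36 of the 66 lay below 0 in negative cells, so the count of 36 cannot hold there. Across the 66 genes, Pearson's r between the differences of any 2 sorts was 0.67 to 0.72, and over all genes 0.45 to 0.61. The sorts share no arrays, but they share probes and normalization and may share pools of embryos, and genes are not independent replicates.

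The small subunit held the lowest and the highest of the 66 differences. The gene rps10 encodes a protein of the head of the small subunit near the messenger RNA entry, and it is a Diamond-Blackfan gene. It read 11.49, 11.27 and 10.85 in Lycorine Runx+ cells, against 11.67, 11.74 and 11.47 in DMSO Runx+ cells. In kdrl+ cells it read 11.00, 11.50 and 11.49 with Lycorine, against 11.89, 11.70 and 11.69 in DMSO. In negative cells it read 11.41, 11.13 and 11.33 with Lycorine, against 11.75, 11.58 and 11.54 in DMSO. The groups did not overlap in kdrl+ and negative cells and touched in Runx+ cells, where the lowest DMSO array lay just under the highest Lycorine array. The average difference was -0.40 ± 0.12 (SE; adjusted p = 0.0568 in limma), short of the threshold.

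The gene rps26, which encodes a protein at the messenger RNA exit of the small subunit and is also a Diamond-Blackfan gene, was the highest of the 66 in the average. It read 11.86, 11.73 and 11.83 in Lycorine Runx+ cells, against 11.16, 11.53 and 11.60 in DMSO Runx+ cells. It read 12.04, 12.00 and 11.78 in Lycorine kdrl+ cells, against 11.49, 11.59 and 11.67 in DMSO kdrl+ cells, and in both sorts every Lycorine array was the higher. In negative cells the values were 11.88, 11.98 and 11.76 with Lycorine, against 11.42, 11.51 and 11.85 in DMSO, which overlap through 1 DMSO array. The average difference was 0.34 ± 0.11 (SE; adjusted p = 0.0693 in limma). A second row of rps26 gave a difference of 0.08, so the size rests on which row is read. Its relative rps26l, which the rule leaves out, gave -0.04 ± 0.09 (SE; adjusted p = 0.835 in limma).

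**Figure D3:**
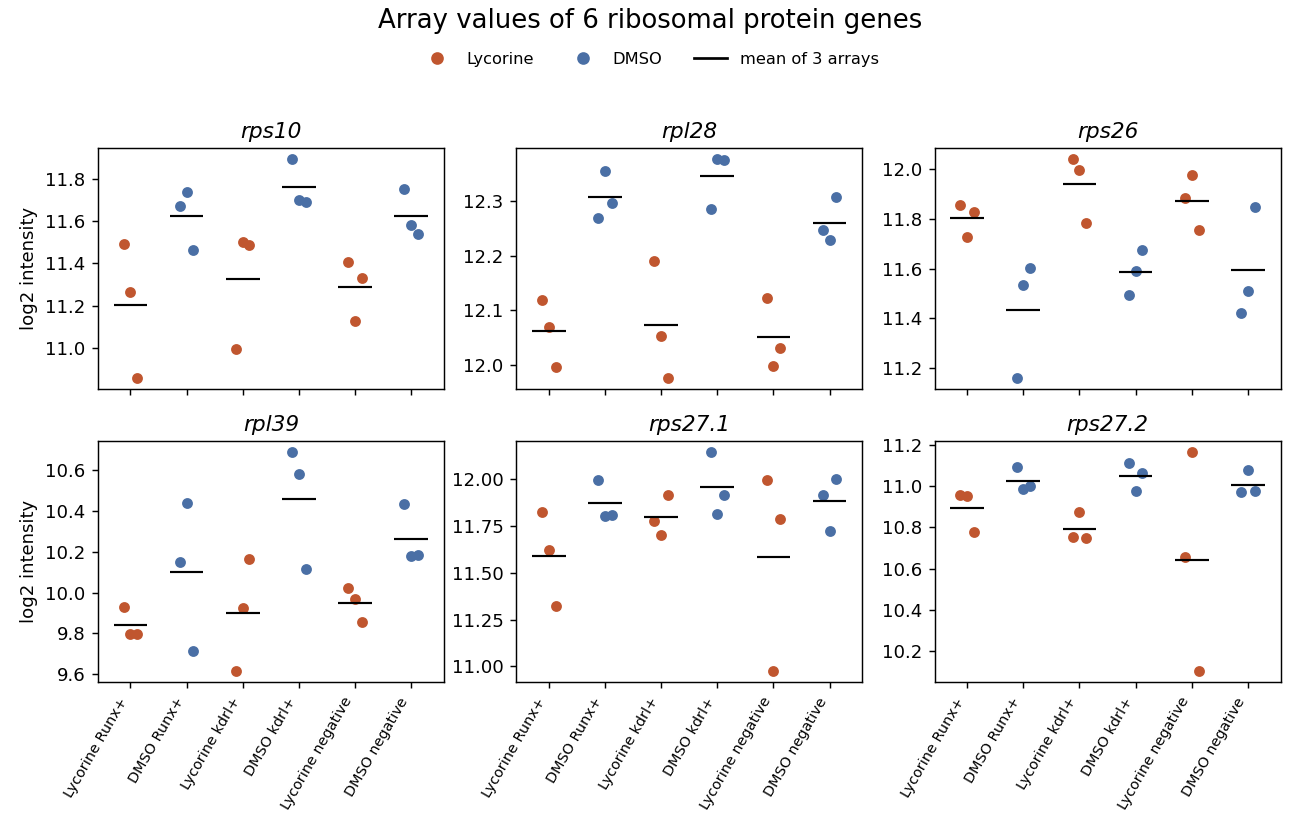
Log2 intensity of 6 ribosomal protein genes on each of the 18 arrays by group, with a bar at the mean of 3 arrays. In rpl28 every Lycorine array lies below every DMSO array of its sort, in rps26 the Lycorine means are the higher in each sort, and in rps27.1 and rps27.2 a different array of Lycorine negative cells stands far below the rest.

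Among the other small subunit genes, rps16, whose protein reaches towards the decoding site, had an average difference of -0.25 ± 0.11 (SE; adjusted p = 0.189 in limma). In Runx+ cells alone, rps4x differed by -0.28 ± 0.18 and rps28, a small protein of the head, by 0.22 ± 0.16 (SE). In negative cells alone, rps25, which contacts the viral entry elements that recruit ribosomes without a cap, differed by -0.23 ± 0.15 (SE). These 3 single-sort differences are each under 2 SE. The difference of rps4x in Runx+ cells comes mostly from 1 array: the gene read 11.37, 11.26 and 10.86 with Lycorine, against 11.45, 11.48 and 11.42 in DMSO.

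The zebrafish carries 2 copies of rps27, a zinc finger protein of the small subunit, and both are measured. The copy rps27.1 had an average difference of -0.25 ± 0.13 (SE; adjusted p = 0.266 in limma), and rps27.2 one of -0.25 ± 0.12 (SE; adjusted p = 0.213). In kdrl+ cells rps27.2 read 10.75, 10.87 and 10.75 with Lycorine, against 11.11, 10.98 and 11.06 in DMSO, without overlap. In negative cells it read 10.66, 11.16 and 10.10 with Lycorine, against 10.97, 11.08 and 10.97 in DMSO, so that the Lycorine arrays lay on both sides of the DMSO arrays. For rps27.1 the negative cells read 11.99, 10.97 and 11.79 with Lycorine, against 11.92, 11.72 and 12.00 in DMSO, and here it was a different array that stood low. The second rows of the copies ran the same way, with -0.22 for rps27.1 and -0.33 for rps27.2. How far probes of such near-identical copies bind both messages was not tested, so the copies are not taken as separate readings.

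In the large subunit, rpl28 had a similar difference in each sort. It encodes a protein of the large subunit that budding yeast lacks. It read 12.12, 12.07 and 12.00 in Lycorine Runx+ cells, against 12.27, 12.36 and 12.30 in DMSO Runx+ cells. It read 12.19, 12.05 and 11.98 in Lycorine kdrl+ cells, against 12.29, 12.38 and 12.38 in DMSO kdrl+ cells. It read 12.12, 12.00 and 12.03 in Lycorine negative cells, against 12.25, 12.23 and 12.31 in DMSO negative cells. The 9 Lycorine arrays were each lower than every DMSO array of their sort, with differences of -0.25, -0.27 and -0.21 in Runx+, kdrl+ and negative cells. Its average difference was -0.24 ± 0.09 (SE; adjusted p = 0.108 in limma), and its second row gave -0.17. On that second row the treatments overlapped in Runx+ and negative cells, and only in kdrl+ cells did they not.

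A further gene, rpl7, which encodes a protein at the outer face of the large subunit, shared that separation with smaller differences and was picked out after its values were seen. It read 10.51, 10.34 and 10.26 in Lycorine Runx+ cells, against 10.52, 10.64 and 10.56 in DMSO Runx+ cells, with the nearest arrays almost equal. Its average difference was -0.16 ± 0.09 (SE; adjusted p = 0.288 in limma). On the rows used, these 2 genes of 66 were lower without overlap in all 3 sorts, beside 0.826% of all genes. In the other direction 0 of 66 were higher without overlap in all 3, beside 0.436%.

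The largest difference in a single sort was that of rpl39. It read 9.61, 9.93 and 10.16 in Lycorine kdrl+ cells, against 10.69, 10.58 and 10.11 in DMSO kdrl+ cells, a difference of -0.56 ± 0.22 (SE; adjusted p = 0.37 in limma) with overlap. It read 9.93, 9.80 and 9.80 in Lycorine Runx+ cells, against 10.15, 10.44 and 9.71 in DMSO Runx+ cells, again with overlap. In negative cells it read 10.02, 9.97 and 9.86 with Lycorine, against 10.43, 10.18 and 10.18 in DMSO, without overlap. Its average difference was -0.38 ± 0.13 (SE; adjusted p = 0.0827 in limma).

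The gene rpl27a, which encodes a protein reaching towards the peptidyl transferase centre, differed by -0.43 ± 0.20 in kdrl+ cells (SE; adjusted p = 0.418 in limma). It read 7.36, 7.69 and 7.81 with Lycorine, against 8.39, 7.78 and 7.99 in DMSO, and the highest DMSO array sets much of this difference. In Runx+ cells the difference was -0.09 and in negative cells -0.15.

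The acidic proteins of the stalk, which recruit the GTPase factors of translation to the large subunit, came next. The average differences were -0.11 ± 0.09 for rplp1, -0.13 ± 0.10 for rplp2 and -0.05 ± 0.09 for its second copy rplp2b (SE; adjusted p = 0.43, 0.442 and 0.771 in limma). In Runx+ cells rplp1 read 11.71, 11.72 and 11.71 with Lycorine, against 11.95, 11.86 and 11.80 in DMSO. These groups did not overlap, with a difference of -0.16 ± 0.15 (SE). The base of the stalk, rplp0, was not read from a named row and is not analysed here.

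Of 24 genes linked to Diamond-Blackfan anaemia, 21 were measured as members. None passed the test in the average over sorts, 16 lay below 0, and their median difference was -0.05, between -0.40 for rps10 and 0.34 for rps26. Over all genes 5.10% passed, 59.6% lay below 0 and the median was -0.07. Of all 66 members, 48 lay below 0 with a median of -0.06. Whether the Diamond-Blackfan genes differ from the rest was not tested.

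The effect of Lycorine was also compared between sorts. None of the 66 genes passed in the difference between Runx+ and negative cells, between kdrl+ and negative cells, or between Runx+ and kdrl+ cells, where 0%, 0% and 0% of all genes passed. None had an unadjusted p under 0.05, beside 1.67%, 2.66% and 4.43% of all genes in that order. The smallest p-values belonged to rps13, rps6 and rps18 in the first, to rpl38, rpl27a and rpsa in the second and to rpl27a, rps28 and rpl37 in the third. The SE of such a difference was 0.23 for the median member, and its 95% interval lay within 1.5-fold for 35, 36 and 41 of the 66 genes in that order of comparisons. Smaller differences between sorts were not detectable with 3 arrays per group.

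Other things moved with the treatment. Muscle markers (14 of 14 genes measured) were lower with Lycorine in the average over sorts for all 14, of which 8 passed the test, and scored -0.63 to 0.74 in Lycorine Runx+ cells, against 0.63 to 1.47 in DMSO Runx+ cells. In kdrl+ cells the muscle score was -1.27 to -0.93 with Lycorine, against -0.60 to 0.91 in DMSO, and in negative cells -0.71 to -0.06, against 0.17 to 0.67. Arrays of DMSO cells also spread more: the median SD over all genes was 0.24, 0.19 and 0.20 in Lycorine Runx+, kdrl+ and negative cells, against 0.36, 0.38 and 0.30 in the same sorts of DMSO cells. Of the other marker lists in the average over sorts, 2 of 10 neural genes rose, while 1 of 9 erythroid, 2 of 9 myeloid, 1 of 10 epidermal and 1 of 11 HSPC genes fell and 0 of 14 endothelial genes passed. All 10 liver, pancreas and gut genes lay below 0, with a median of -0.99, and 2 fell. Beside these counts, 5.10% of all genes passed in this average, and lists with 0 or 1 passing gene are near that share. The part of these in the ribosomal protein values was not tested.

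The second set of comparisons asked how the sorts differ. With the deposited values, ribosomal protein genes read highest in kdrl+ cells and lowest in Runx+ cells, by small amounts. Under Lycorine, Runx+ cells lay below kdrl+ cells for 62 of the 66 genes and for 44.5% of all genes. The median difference of the 66 was -0.13, or 0.915-fold, while the median over all genes was 0.06. In DMSO, Runx+ cells lay below kdrl+ cells for 64 of the 66 genes and for 48% of all genes. The median of the 66 was -0.15, or 0.9-fold, while the median over all genes was 0.02. Both directions held under each of the other scalings tried, but the medians shrank to about -0.06 in either treatment after a further quantile normalization or cyclic loess. With the deposited values, the 176 other bright genes had a median of -0.03 in either treatment. The 56 bright members had medians of -0.13 under Lycorine and -0.15 in DMSO. The 10 dimmer members had -0.03 under Lycorine and -0.21 in DMSO. None of the 66 genes passed the test of limma, where 12.8% of all genes passed under Lycorine and 8.43% in DMSO. At an unadjusted p under 0.05 there were 0 of the 66 under Lycorine, beside 26.7% of all genes, and 1 in DMSO, beside 21.9%.

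The arrays of Runx+ cells lay wholly below those of kdrl+ cells for 23 genes under Lycorine (34.8%, against 18.1% of all genes) and for 20 in DMSO (30.3%, against 8.01%), and wholly above for none of the 66 in either treatment, beside 22.2% of all genes under Lycorine and 8.27% in DMSO. In both treatments 61 of the 66 genes (92.4%) had a lower mean in Runx+ cells, against 31.7% of all genes. That count was 37 after quantile normalization, 40 after cyclic loess and 63 after median centring, against 29.9%, 31.1% and 34.1% of all genes. The treatments share no arrays. Across the 66 genes Pearson's r between the differences under Lycorine and in DMSO was 0.37, against 0.80 over all genes. Without the DMSO arrays of number 2 the median difference in DMSO was -0.20. Averaged over the treatments, 13 of 14 muscle, 10 of 10 neural and 10 of 10 epidermal markers were higher in Runx+ than in kdrl+ cells by the test. In the same comparison 14 of 14 endothelial and 7 of 9 myeloid markers were lower in Runx+ cells, and 23.2% of all genes passed in either direction. The part of these in the ribosomal protein values was not tested.

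**Figure D4:**
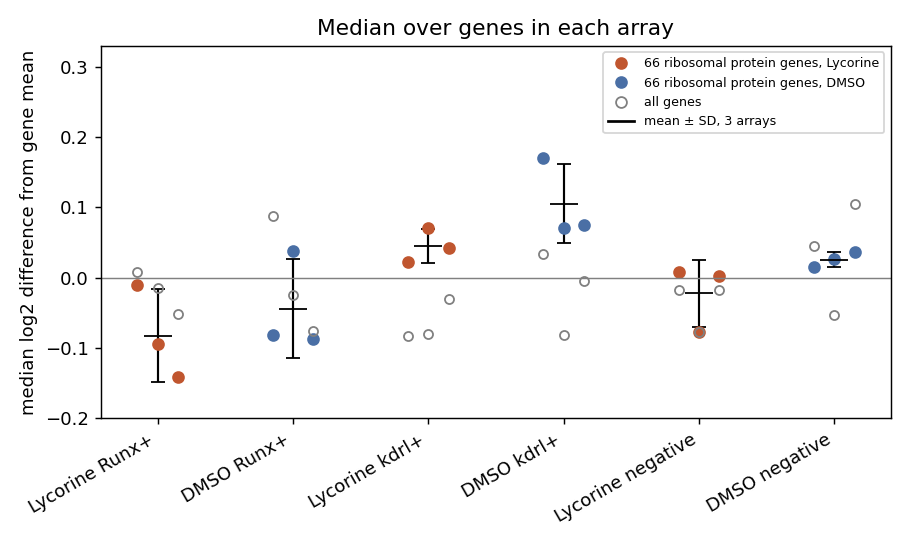
For each of the 18 arrays, the median over 66 ribosomal protein genes (filled points) and over all genes (open points) of the log2 difference from the mean of each gene over all arrays, with the mean ± SD of 3 arrays per group. The kdrl+ arrays all lie above 0 in the ribosomal protein genes, and 5 of the 6 Runx+ arrays lie below 0.

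The median of the 66 genes on each array, taken as the difference from the mean of each gene over the 18 arrays, had a narrow range. It averaged -0.08 ± 0.07 in Lycorine Runx+ cells and -0.04 ± 0.07 in DMSO Runx+ cells (SD, n = 3 each). It averaged 0.04 ± 0.02 in Lycorine kdrl+ cells and 0.11 ± 0.06 in DMSO kdrl+ cells, and -0.02 ± 0.05 in Lycorine negative cells and 0.03 ± 0.01 in DMSO negative cells. The lowest array was replicate 3 of Lycorine Runx+ cells, at -0.14, and the highest was replicate 1 of DMSO kdrl+ cells, at 0.17.

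Among single genes, rps6, whose protein is the substrate of the S6 kinases, separated Runx+ from kdrl+ cells. It read 11.11, 10.95 and 10.82 in Lycorine Runx+ cells, against 11.41, 11.24 and 11.25 in Lycorine kdrl+ cells. In DMSO it read 11.04, 11.03 and 10.98 in Runx+ cells, against 11.46, 11.18 and 11.24 in kdrl+ cells. The sorts did not overlap in either treatment, with differences of -0.34 ± 0.16 under Lycorine (SE; adjusted p = 0.188 in limma) and -0.27 ± 0.16 in DMSO (SE; adjusted p = 0.355).

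The gene rpl38, whose loss in the mouse disturbs the translation of Hox messages, read 9.24, 9.22 and 9.54 in Lycorine Runx+ cells, against 9.57, 9.51 and 9.44 in Lycorine kdrl+ cells, and there the sorts overlapped. In DMSO it read 9.31, 9.36 and 9.15 in Runx+ cells, against 9.96, 9.58 and 9.50 in kdrl+ cells, without overlap and with a difference of -0.41 ± 0.18 (SE; adjusted p = 0.194 in limma). In DMSO the next genes by p were rpl27a (-0.35), rps28 (-0.28), rps6 and rpl39 (-0.36).

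Under Lycorine rps4x (-0.33), rps13 (-0.32) and rpl5b (-0.39) followed rps6. The last encodes a copy of Rpl5, which carries 5S ribosomal RNA and, with Rpl11, binds the p53 regulator Mdm2. It read 11.34, 11.43 and 10.63 in Lycorine Runx+ cells, against 11.56, 11.59 and 11.44 in Lycorine kdrl+ cells, so replicate 3 of the Runx+ cells sets much of the difference. The same array was the lowest for rps13, which read 10.61, 10.30 and 9.92 in Lycorine Runx+ cells, against 10.62, 10.60 and 10.58 in Lycorine kdrl+ cells. Without that array the median difference between Runx+ and kdrl+ cells under Lycorine over the 66 genes was -0.09, with 57 below 0. The dim rps8b ran the other way, at 0.35 ± 0.24 (SE).

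The sorts were also averaged over both treatments, a comparison added after the values were seen. In Runx+ cells 64 of the 66 genes stood below kdrl+ cells, with a median of -0.14, beside 45.9% of all genes below 0. None passed the test, where 23.2% of all genes did, and 2 had an unadjusted p under 0.05, beside 33.4% of all genes. The smallest adjusted p was 0.0617, for rps6 at -0.31 ± 0.11 (SE, limma), followed by rpl38 at -0.29, rpl5b at -0.32, rps3a at -0.26 and rps13 at -0.27.

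Under Lycorine 57 of the 66 genes were higher in kdrl+ than in negative cells, with a median of 0.06 against -0.03 over all genes. In DMSO 61 were higher, with a median of 0.09 against -0.05. Over all genes 53.9% lay below 0 under Lycorine and 54.4% in DMSO. None of the 66 passed the test of limma, where 12.9% of all genes passed under Lycorine and 10.5% in DMSO, and none had an unadjusted p under 0.05, beside 23.6% of all genes under Lycorine and 23.3% in DMSO. The kdrl+ arrays lay wholly above the negative arrays for 8 genes under Lycorine (12.1%, against 17.7% of all genes) and for 13 in DMSO (19.7%, against 8.83%). Under Lycorine the smallest p-values were those of rps8b (-0.33 ± 0.24, SE), rps4x (0.21 ± 0.18), rpl36a (0.19), rpl34 (0.16) and rpl10 (0.19). In DMSO they were those of rpl38 (0.36 ± 0.18), rps6 (0.29 ± 0.16), rpl13 (0.20), rpl27a (0.26) and rpl15 (0.19). Averaged over both treatments 63 of the 66 were higher in kdrl+ cells, with a median of 0.08, while 54.1% of all genes lay below 0. Again none of the 66 passed, beside 22.5% of all genes, with 0 of 66 at an unadjusted p under 0.05, beside 32.3%.

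Between Runx+ and negative cells the differences were also small. Over all genes 48.8% were lower in Runx+ cells under Lycorine, with a median of 0.01, and 52.5% in DMSO. Of the 66 genes, 58 were lower under Lycorine with a median of -0.06, and this direction held under each scaling tried. In DMSO 48 were lower with a median of -0.06, but centring each array on its median turned this to 0.04 with 17 below 0, and gave a median over all genes of 0.08 in place of -0.02. Without the arrays of number 2 the median in DMSO was -0.10, with 53 below 0. None of the 66 passed the test of limma under Lycorine, in DMSO or averaged over both, where 0.0104%, 0.00520% and 0.151% of all genes passed in that order. None had an unadjusted p under 0.05, beside 3.46%, 12.5% and 14.0% of all genes. The genes of smallest p under Lycorine were rps13 (-0.30 ± 0.21, SE), rps6 (-0.21), rps27.2 (0.26), rpl5b (-0.21) and rps24 (-0.16), and in DMSO rps24 (-0.27 ± 0.18), rps18 (-0.20), rps15a (-0.15), rpl27 (-0.16) and rps20 (-0.15).

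With the deposited values, the order of all 3 sorts was shared by many members. Under Lycorine 51 of the 66 genes (77.3%) had means in the order kdrl+, negative, Runx+ from high to low, against 20% of all genes, and in DMSO 43 did (65.2%), against 16.7% of all genes. In both treatments 33 genes held it, against 7.08% of all genes. These counts rest on the scaling. After median centring 60 genes held the order under Lycorine and 17 in DMSO, against 23.5% and 14.2% of all genes. After quantile normalization 32 and 22 did, in the same sequence of treatments, against 18.6% and 14.4%. After cyclic loess 31 and 26 did, against 20.9% and 13.6%. In both treatments 15, 8 and 13 genes held it under those 3 scalings, against 6.68%, 5.94% and 6.18% of all genes. Without the DMSO arrays of number 2, 46 genes held it in DMSO and 36 in both treatments, against 17.7% and 7.92% of all genes. For none of the 66 genes did a neighbouring pair in this order pass the adjusted test.

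**Figure D5:**
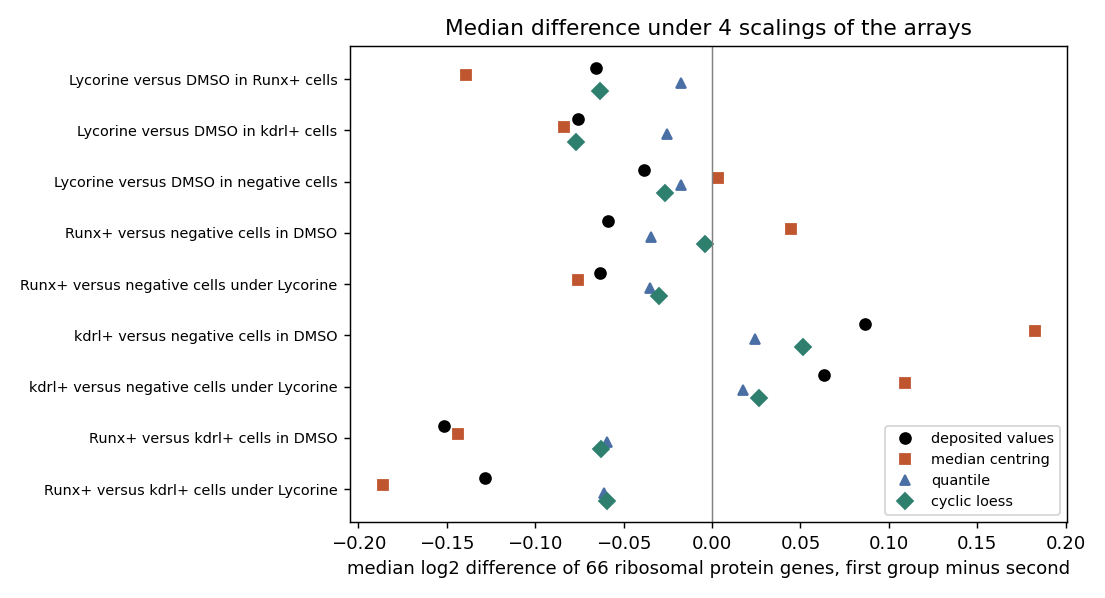
Median log2 difference over the 66 ribosomal protein genes in 9 comparisons, first group minus second, under the deposited values and 3 further scalings of the arrays. The medians of Runx+ against kdrl+ cells stay below 0 under all 4 scalings, while those of Lycorine against DMSO in negative cells and of Runx+ against negative cells in DMSO lie on both sides of 0.

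The size of these medians depends on how arrays are scaled, as the plot of medians by scaling shows. For Lycorine against DMSO the median ran from -0.14 to -0.02 in Runx+ cells and from -0.08 to -0.03 in kdrl+ cells. In negative cells it ran from -0.04 to 0.00, with 31 of the 66 genes below 0 after median centring. For kdrl+ against negative cells in DMSO it ran from 0.02 to 0.18.

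Genes around the ribosomal proteins were read from lists, in the average of Lycorine over the sorts. Of 34 other TOP genes, which encode elongation factors, poly(A)-binding proteins and the like, 26 were measured, 19 lay below 0 with a median of -0.18, and 1 passed. It fell and was eef1db, a subunit of the exchange factor of elongation factor 1, at -0.56 ± 0.13 (SE; adjusted p = 0.0233 in limma). It read 8.47, 8.73 and 8.15 in Lycorine Runx+ cells, against 9.11, 8.75 and 8.87 in DMSO Runx+ cells, without overlap. Next by p were npm1b at 0.43 and pabpc1a at -0.34, both short of the threshold.

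Among 29 genes of mTORC1, S6 kinases, 4E-binding proteins and La-related proteins, 29 were measured and 1 rose, with a list median of -0.02. This was larp7, known for binding the 7SK small nuclear RNA and not for TOP messages, at 0.91 ± 0.21 (SE; adjusted p = 0.0239 in limma). It read 7.50, 7.22 and 7.19 in Lycorine kdrl+ cells, against 5.64, 5.18 and 6.81 in DMSO kdrl+ cells. In negative cells the treatments overlapped, with 7.71, 7.09 and 7.59 with Lycorine, against 7.53, 6.89 and 7.66 in DMSO.

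Of 16 genes of p53 and its targets, which unassembled ribosomal proteins can raise by binding Mdm2, 15 were measured, 11 lay below 0 with a median of -0.23, and 1 fell. It was ccng1, a p53 target, at -0.45 ± 0.11 (SE; adjusted p = 0.0319 in limma), and cdkn1a stood at -0.52 ± 0.24 (SE; adjusted p = 0.194). Of 24 chaperones, importins and histone chaperone relatives tied to ribosomal proteins, 20 were measured and 0 passed, with a median of -0.08. Of 16 genes of ribosome collision and rescue, 13 were measured and 0 passed, with a median of -0.04. The 67 genes named as mitochondrial ribosomal proteins, which build a separate ribosome, had a median of 0.08 and 1 rose, mrps26, at 0.62 ± 0.13 (SE; adjusted p = 0.0168 in limma). The background for all these counts is the 5.10% given above, which moves with the arrays used and with the fit. With arrays of the same treatment and number taken as a random block, 177 of all genes passed in place of 982. The genes that passed in these lists are given from the fit without a block, and each list is a description.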

How the data were processed

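The deposited values are log2 intensities of 65528 probe rows on 18 single-channel arrays, which the authors made with oligo, RMA and limma per the submitters' processing notes. Versions are not given in the sources used here. Per the labels' protocols, RNA was amplified before biotin labelling. Rows with exactly 1 symbol (20806, with 855 carrying several and 43867 none) were named through the platform annotation and a RefSeq table of GRCz12tu, from which no coordinate is used. The brightest row of each gene over all arrays was kept, giving 19247 genes, and dim genes were not filtered.

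A model of 6 group means was fitted to all 18 arrays with limma 3.58.1 in R 4.3.3 by lmFit and eBayes, with 2-sided tests. Benjamini-Hochberg adjustment ran over all genes of a comparison, and an adjusted p under 0.05 passed. Comparisons between sorts share DMSO or Lycorine arrays with comparisons of treatment. The number of arrays limits the precision. Code was tested on simulated data. Tables and figures used Python 3.11.15, pandas 2.3.3 and matplotlib 3.10.9.

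Genes were named by a rule: per comparison the 5 with the smallest p where fewer than 5 passed, 3 for differences of effects, plus the stalk proteins, gene copies and genes linked to Diamond-Blackfan anaemia. The members and lists were chosen with earlier results of these data known, and 1 entry of uncertain identity was dropped from the collision and rescue list after values were seen. Alternatives were 3 further scalings, replicate blocks, the mean of all rows of a gene, a filter on dim genes, fits to the groups compared only, array weights, moderation with trend and robust settings, and leaving out each array. Added after the data were seen were sorts averaged over both treatments, the 3 DMSO arrays of number 2 left out together, and the order of the sorts under each scaling.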

Additional observations from a re-analysis of the deposited data

How the results depend on the processing

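Outside the average Lycorine effect, 0 of the 66 genes passed under every alternative run. In that average 1 passed after quantile normalization (rps26, adjusted p = 0.0392), 1 after cyclic loess (rps10, 0.0293), 2 with array weights (rps26 and rpl39) and 3 with trend and robust moderation (rps10, rps26 and rpl28). Leaving out 1 array gave 0 to 1: rps10 without replicate 1 of DMSO Runx+ cells, rpl39 without replicate 3 of DMSO Runx+ or of DMSO kdrl+ cells, and rps26 without replicate 3 of DMSO negative cells. Over all these alternatives the differences of rps10, rps26, rpl39 and rpl28 kept their sign. Median centring moved the median of the 66 genes to -0.1393 for Lycorine in Runx+ cells, 0.0446 for Runx+ against negative cells in DMSO, 0.1825 for kdrl+ against negative cells in DMSO and -0.1862 for Runx+ against kdrl+ cells under Lycorine. Quantile normalization gave 0.0242 for kdrl+ against negative cells in DMSO, and for Runx+ against kdrl+ cells -0.0613 under Lycorine and -0.0595 in DMSO. Cyclic loess gave -0.0041 for Runx+ against negative cells in DMSO, and for Runx+ against kdrl+ cells -0.0593 under Lycorine and -0.0627 in DMSO. The count of genes in the order kdrl+, negative, Runx+ was 32 and 31 under Lycorine after quantile normalization and cyclic loess, and 17, 22 and 26 in DMSO after median centring, quantile normalization and cyclic loess. In both treatments it was 15, 8 and 13 under those 3, and the count with Runx+ below kdrl+ cells in both was 37 and 40 after quantile normalization and cyclic loess. The cause was not tested. Leaving out the 3 DMSO arrays of number 2 together, added after the data were seen, gave 0 of 66 in each comparison and 514 of all genes in the average Lycorine effect. With the replicate number as a fixed replicate block, 0 of 66 passed in each comparison, with a smallest adjusted p of 0.0538 in the average Lycorine effect, and as a random block 0 with a smallest of 0.135. Arrays of equal number deviated together with r from -0.09 to 0.42 within DMSO and from -0.36 to 0.42 within Lycorine, with 8 of 9 such pairs over 0.1 and a median of 0.33 within DMSO, and 4 of 9 and a median of 0.02 within Lycorine. Pairs of unequal number had medians of -0.17 within DMSO and -0.11 within Lycorine. The deviations of a group sum to 0, so these medians are tied to those of equal number and are no separate contrast. By the pairs of equal number alone, arrays tended to deviate together within DMSO, but not every pair did. With the number as a block within treatment 0 of 66 passed in each comparison between sorts. With 3 arrays per group, differences under about 2 SE could not be resolved. After adjustment over all genes some differences of more than 2 SE did not pass either, among them rps10 in the average Lycorine effect.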

Other observations

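The 4 genes with a like tag, which the rule leaves out, were read in the same fit. In Runx+ against kdrl+ cells averaged over both treatments, rps27l, whose human relative is induced by p53, fell by 0.78 ± 0.20 on the log2 scale (SE; adjusted p = 0.00967 in limma), and rpl7l1 fell by 0.47 ± 0.15 (SE; adjusted p = 0.0289). The other two, rps26l and rpl22l1, stood at -0.11 and -0.09 and did not pass. In the same comparison 2 of the 15 measured genes of p53 and its targets passed, beside 23.2% of all genes, and the list had 7 genes below 0 and a median of 0.01. Both were lower in Runx+ cells, sesn3 and sesn1, at -1.37 ± 0.17 (SE; adjusted p = 1.7e-05) and -0.71 ± 0.18 (SE; adjusted p = 0.00828). Of the 26 other TOP genes 20 lay below 0, with a median of -0.09, and 3 passed, all higher. The gene pabpc1b, a poly(A)-binding protein, was higher in Runx+ cells at 0.75 ± 0.13 (SE; adjusted p = 0.00049), as were eef2l2 at 0.76 and eef1a1a at 0.68. This comparison was added after the values were seen.

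The 67 mitochondrial ribosomal protein genes had a median difference between Runx+ and kdrl+ cells of 0.08 under Lycorine and -0.18 in DMSO. The medians over all genes were 0.06 and 0.02. Of the 67, 48 lay above 0 under Lycorine and 16 in DMSO. Over all genes the share on the other side, below 0, was 44.5% under Lycorine and 48% in DMSO. The larger part of all genes thus lay above 0 in either treatment. None of the 67 passed in either, and the difference between the treatments was not tested. The 66 cytosolic genes gave -0.13 and -0.15 in the same comparisons.

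For rpl11, a partner of Rpl5 in binding Mdm2, the row used gave an average Lycorine difference of 0.02 at a mean level of 11.98, and a dim second row, at 6.16, gave -0.56. The 15 rows that carry a ribosomal protein symbol together with a second symbol had differences from -1.29 to 0.50 and were not used.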
